A study of Mus musculus with 112 samples.

Results

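Transcripts of 10 genes of the bone morphogenetic protein (BMP) response were followed in sorted mouse intestinal cells: the inhibitors of DNA binding Id1, Id2, Id3 and Id4, the inhibitory Smads Smad6 and Smad7, the receptors Bmpr1a and Bmpr2, and the signal carriers Smad1 and Smad5. They were picked by symbol, and each of the 10 had its row among the 32285 genes of the deposited count table. The mice carried the Lgr5-eGFP-IRES-CreERT2 allele on a C57BL/6 background, in aged and young animals alike, so GFP was made from the Lgr5 locus. Aged mice were 23 to 27 months old and young mice 2 to 3 months old, of both sexes. From the proximal small intestine, Paneth cells were sorted as GFP negative with high CD24 and high side scatter, progenitors as CD24 low and GFP medium to low, and intestinal stem cells (ISCs) as CD24 low and GFP high, with every gate Epcam high and 7-AAD negative. There were 12 aged and 12 young Paneth samples (69 technical libraries summed per animal), 10 aged and 10 young progenitor samples, and 12 aged and 11 young ISC samples, under 36 animal names of which 23 gave at least 2 populations.

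BMP ligands bind a pair of receptor kinases of type 1 and type 2, such as Bmpr1a and Bmpr2. The receptors phosphorylate Smad1 and Smad5, which join Smad4 and switch on target genes, the Id genes foremost. Id proteins lack a DNA-binding domain and hold basic helix-loop-helix (bHLH) factors away from DNA, while Smad6 and Smad7 are induced by the pathway and damp it. In the small intestine BMP signalling is known to be low at the crypt base, where stromal antagonists hold it down, and high towards the villus, and it restrains stem cell self-renewal.

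Samples held 2.82 to 11.8 M reads in Paneth cells, 2.48 to 7.57 M in progenitors and 2.18 to 5.59 M in ISCs. Levels are normalised read counts (CPM) on 1 trimmed-mean (TMM) scale for the 67 samples. Libraries read only the 3′ end of a transcript, so a gene was compared between samples and never with another gene. As a check of the gates, 8 ISC markers summed to 1808 to 5246 CPM in aged and 1516 to 4598 CPM in young Paneth cells, 648 to 1718 CPM in aged and 933 to 1653 CPM in young progenitors, and 7719 to 12220 CPM in aged and 6515 to 11370 CPM in young ISCs. Lgr5 transcript did not follow the GFP gates throughout. It averaged 31.6 CPM in aged and 47.3 CPM in young Paneth cells, which were GFP negative, and 3.86 and 4.87 CPM in aged and young progenitors. In aged and young ISCs it averaged 94.3 and 106 CPM. The 8 Paneth markers summed to at least 99700 CPM in every Paneth sample, and to at most 2144 CPM in progenitors and 1139 CPM in ISCs. The Paneth gate also held enteroendocrine markers at 226 to 3757 CPM in aged and 188 to 3866 CPM in young samples, and tuft cell markers at 243 to 1181 CPM in aged and 261 to 2007 CPM in young samples. It further held goblet cell markers at 4938 to 12980 CPM in aged and 4081 to 8220 CPM in young samples. Enterocyte markers there were at 1373 to 5298 CPM in aged and 1523 to 3301 CPM in young samples. Goblet cell markers were abundant in progenitors, with 8681 to 34300 CPM in aged and 8869 to 28070 CPM in young progenitors, against 409 to 1878 CPM in aged and 396 to 1659 CPM in young ISCs. Because these are bulk samples, fewer cells expressing a gene and less of its RNA per cell cannot be told apart.

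In ISCs, Id1 and Id3 were higher in aged than in young mice, and no other member of the group passed the test there. Id1 (ENSMUSG00000042745, chr2:152736251-152737410, plus strand, GRCm38) encodes the best-known immediate target of BMP signalling. Its level ranged from 129.8 to 209.7 CPM with a median of 173 in aged ISCs, and from 62.05 to 159.1 CPM with a median of 123 in young ISCs. Every one of the 12 aged samples lay above the young median and 9 lay above the highest young sample. Of the 11 young samples, 6 lay below the lowest aged sample, so the groups overlapped in part. Mean levels were 174 ± 22.8 CPM in aged and 122 ± 27.3 CPM in young ISCs (SD, n = 12 and 11), a log2 fold change of 0.49 ± 0.11 (SE), or 1.41-fold, with an adjusted p of 0.0316 in the edgeR quasi-likelihood test over 11958 genes.

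Id3 (ENSMUSG00000007872, chr4:136143497-136145755, plus strand) encodes a close paralogue that responds to BMP signalling in many cell types. It ranged from 104.1 to 197.3 CPM with a median of 147 in aged ISCs, and from 41.97 to 138.6 CPM with a median of 95.1 in young ISCs. All 12 aged samples exceeded the young median, and 7 exceeded the highest young sample. The means were 150 ± 29.7 CPM in aged and 98.4 ± 27.0 CPM in young ISCs (SD), a log2 fold change of 0.58 ± 0.13 and 1.49-fold, with an edgeR adjusted p of 0.0363. These 2 genes were 2 of the 9 members tested in ISCs (Id4 had too few reads), both higher, where 0.351% of all genes passed the test in either direction and 0.284% were higher. The median log2 fold change was 0.03 over the 9 members and 0.00 over all genes.

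In progenitors, Id3 was again higher in aged mice, and it was the only member of 10 that passed, where 0.728% of all genes passed in either direction and 0.466% were higher. Aged progenitors had 198 to 314.6 CPM with a median of 257, and young progenitors 144.2 to 227.8 CPM with a median of 178. All 10 aged samples were above the young median and 7 above the highest young sample. The log2 fold change was 0.45 ± 0.10, or 1.37-fold, with an edgeR adjusted p of 0.0191. Id1 averaged 193 ± 45.1 CPM in aged and 146 ± 18.2 CPM in young progenitors (SD, n = 10 each), a log2 fold change of 0.40 ± 0.11 that missed the threshold (edgeR adjusted p = 0.111). For Id1, 8 of the 10 aged samples were above every young sample and 1, aged female replicate 5 at 109.6 CPM, was below every young sample. Without that sample the log2 fold change was 0.47 with an edgeR adjusted p of 0.00813, and without aged male replicate 5, at 143.2 CPM, it was 0.45 with an edgeR adjusted p of 0.0448.

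In Paneth cells none of the 9 members tested passed (0.0686% of all genes did; edgeR, with 0 members at an unadjusted p below 0.05 and none called with DESeq2). Id1 had 101.7 to 262.3 CPM with a median of 147.5 in aged Paneth cells, and 79.74 to 237 CPM with a median of 145.75 in young ones, a log2 fold change of 0.23 (95% interval -0.13 to 0.59). Id3 had 89.19 to 265.2 CPM in aged and 52.85 to 240.6 CPM in young Paneth cells, a log2 fold change of 0.08 (95% interval -0.31 to 0.46). The samples of each age covered nearly the same range, which was wider than in the other populations.

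**Figure D1:**
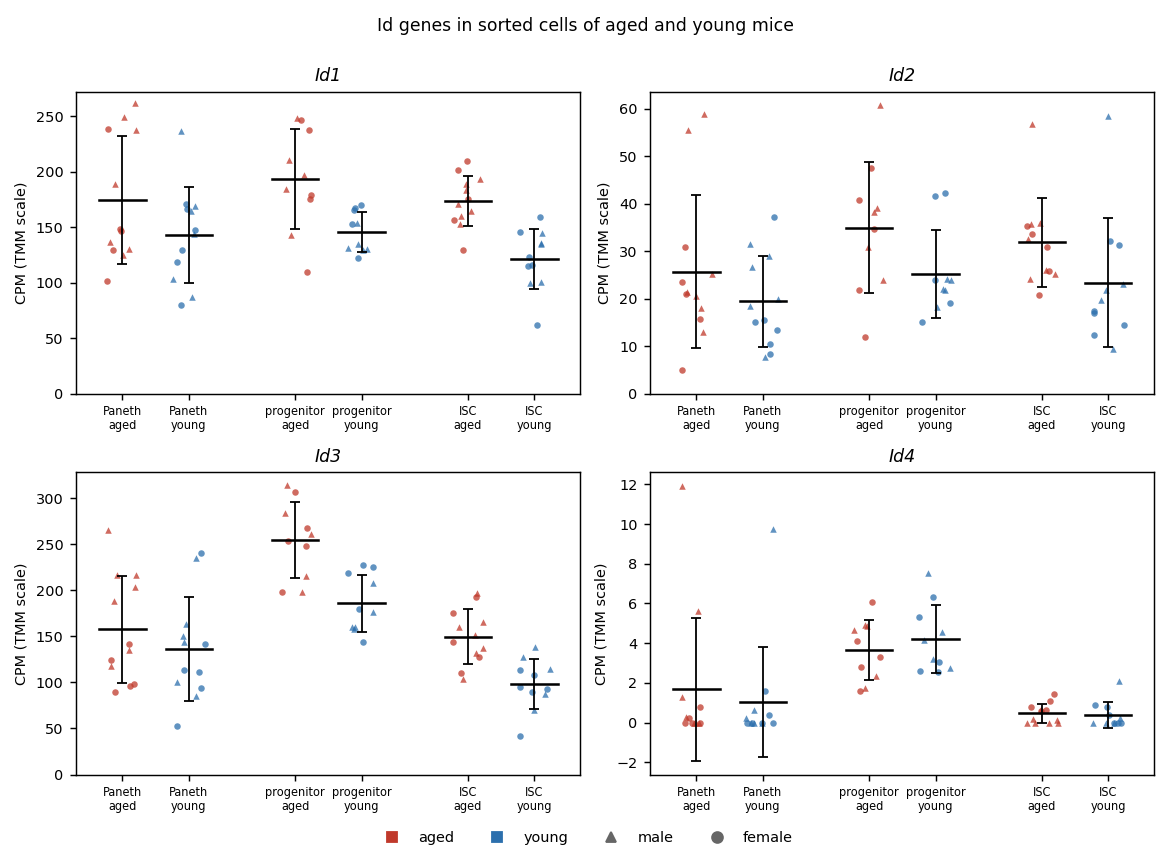
CPM on the common TMM scale (vertical axis, linear) of the 4 Id genes in each sample, with aged samples in red and young in blue, males as triangles and females as circles, and bars for the mean ± SD, which for Id4 pass below 0. Id1 and Id3 sit higher in aged than in young ISCs with some overlap, Id3 is highest in progenitors, and Id4 is near 0 outside progenitors apart from a few male Paneth samples.

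Id2 (ENSMUSG00000020644, chr12:25093799-25097140, minus strand), which in other tissues marks innate lymphoid and early progenitor cells, did not pass in any population. It ranged from 5.07 to 58.8 CPM in aged and 7.79 to 37.2 CPM in young Paneth cells, from 11.99 to 60.8 CPM in aged and 15.2 to 42.2 CPM in young progenitors, and from 20.9 to 56.8 CPM in aged and 9.53 to 58.4 CPM in young ISCs. Its log2 fold changes were 0.30 ± 0.34 in Paneth cells, 0.46 ± 0.21 in progenitors and 0.40 ± 0.22 in ISCs, with edgeR adjusted p-values of 0.930, 0.486 and 0.644. All 12 aged ISC samples lay above the young median of 19.8 CPM, yet 1 young sample, young male replicate 1 at 58.39 CPM, was the highest of all ISCs.

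Id4 (ENSMUSG00000021379, chr13:48261228-48266026, plus strand) could be tested for age only in progenitors. There it had 12 to 33 reads in aged samples (1.59 to 6.09 CPM) and 11 to 55 reads in young samples (2.57 to 7.55 CPM), with a log2 fold change of -0.23 ± 0.33 and an edgeR adjusted p of 0.911. Medians were 3.71 CPM in aged and 3.69 CPM in young progenitors, and 3 of the 10 aged samples lay below the lowest young one. In all, 2 annotated non-coding genes on the opposite strand share exon bases with Id4, of which Gm49291 had 22 and A330033J07Rik 0 reads over all libraries, against 698 for Id4.

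Upstream sequence of the Id genes is shown because it is where BMP-activated Smads are known to act on this family. RefSeq promoter entries (GRCm38.p6) existed for 8 of the 10 members. Id1 and Smad7 have none here. The 250 bases before the RefSeq start site are given for Id3, which passed the age test in both ISCs and progenitors, and for Id2 and Id4. Capitals mark GGCGCC, a palindromic GC element known from BMP-responsive enhancers, which reads the same on both strands. The GENCODE models of Id2 and Id3 begin further upstream than these RefSeq start sites.
Id3 chr4:136143572-136143821 plus strand: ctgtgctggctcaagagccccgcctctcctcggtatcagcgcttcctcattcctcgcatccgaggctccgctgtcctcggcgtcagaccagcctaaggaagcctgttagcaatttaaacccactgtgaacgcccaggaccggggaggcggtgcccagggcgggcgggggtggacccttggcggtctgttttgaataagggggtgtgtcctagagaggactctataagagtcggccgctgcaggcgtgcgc
Id2 chr12:25096093-25096342 minus strand: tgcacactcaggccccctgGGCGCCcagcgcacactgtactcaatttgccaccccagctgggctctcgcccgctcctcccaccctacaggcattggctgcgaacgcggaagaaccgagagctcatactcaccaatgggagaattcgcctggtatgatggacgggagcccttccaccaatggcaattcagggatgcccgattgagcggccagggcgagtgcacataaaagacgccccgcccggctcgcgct
Id4 chr13:48260866-48261115 plus strand: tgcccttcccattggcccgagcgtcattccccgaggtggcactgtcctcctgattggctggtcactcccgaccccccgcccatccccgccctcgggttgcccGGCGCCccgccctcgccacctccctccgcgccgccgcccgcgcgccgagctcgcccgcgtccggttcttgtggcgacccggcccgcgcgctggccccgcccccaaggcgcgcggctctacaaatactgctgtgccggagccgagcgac
GGCGCC lay 231 bases before the start site in Id2 and 148 bases before it in Id4, and these letters did not occur in the Id3 window. They also occurred in Bmpr1a, Bmpr2 and 1 of the 3 Smad5 start sites, so 5 of the 8 members with an entry held it, where 9.59% of 32851 RefSeq promoter windows of the same length did. The Smad palindrome GTCTAGAC occurred in none of the 8 and in 0.167% of all windows. Binding was not measured.

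In ISCs and progenitors the age effects of Id1 and Id3 were positive in both sexes, and neither gene passed within 1 sex (0.209% of all genes did in male and 0.0753% in female ISCs, and 0.178% in male and 0.0847% in female progenitors). No member passed within 1 sex in Paneth cells either, where 0.0343% of all genes did in males and 0.0171% in females, and Id3 there gave 0.36 ± 0.26 in males and -0.21 ± 0.28 in females. In ISCs the log2 fold change of Id1 was 0.47 ± 0.16 in males and 0.51 ± 0.16 in females, and that of Id3 was 0.45 ± 0.19 in males and 0.70 ± 0.19 in females. In progenitors Id3 gave 0.55 ± 0.14 in males and 0.35 ± 0.14 in females. None of the 9 members tested in ISCs or Paneth cells and the 10 in progenitors passed the test of male minus female age effect, nor did any gene, 0% in each edgeR fit (838, 731 and 621 genes had an unadjusted p below 0.05, and DESeq2 called 2 genes in progenitors and none elsewhere). The members with the smallest unadjusted p were Bmpr1a in ISCs and Smad5 in progenitors. Bmpr1a gave 0.36 ± 0.21 in male and -0.54 ± 0.22 in female ISCs, a difference of 0.90 ± 0.30 with an edgeR adjusted p of 0.560. Smad5 gave 0.99 ± 0.34 in male and -0.35 ± 0.34 in female progenitors, a difference of 1.34 ± 0.48 with an adjusted p of 0.783. All mice of 26 and 27 months were male, 3 in each population, so those ages have no female to compare. The other aged males were 23 or 24 months old, as were the aged females. By sex, Bmpr1a averaged 46.9 ± 12.9 CPM in aged male (SD, n = 7) and 27.6 ± 5.58 CPM in aged female ISCs (n = 5). Smad5 averaged 16.2 ± 7.25 CPM in aged male and 9.13 ± 3.30 CPM in aged female progenitors (n = 5 each). By months, with both sexes together at 23 and 24 months, Bmpr1a in ISCs averaged 34.0 ± 12.7 CPM at 23 and 24 months (SD, n = 9) and 53.4 ± 6.15 CPM at 26 and 27 months (n = 3). Smad5 in progenitors averaged 10.2 ± 3.29 CPM at 23 and 24 months (n = 7) and 18.4 ± 9.35 CPM at 26 and 27 months (n = 3). The parts of sex and of months were not tested.

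Without the aged mice of 26 and 27 months, Id1 gave 0.46 (adjusted p = 0.122) and Id3 0.52 (adjusted p = 0.136) in ISCs, and Id3 gave 0.38 (adjusted p = 0.257) in progenitors (edgeR). By months, Id1 in ISCs averaged 122 ± 27.3 CPM in young mice, 171 ± 24.9 CPM at 23 and 24 months (n = 9) and 182 ± 15.6 CPM at 26 and 27 months (SD, n = 3). Id3 in ISCs averaged 98.4 ± 27.0 CPM in young mice, 145 ± 29.5 CPM at 23 and 24 months and 165 ± 30.0 CPM at 26 and 27 months. In progenitors Id3 averaged 186 ± 31.4 CPM in young mice, 248 ± 38.8 CPM at 23 and 24 months (n = 7) and 271 ± 50.5 CPM at 26 and 27 months (n = 3).

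Names of ISC and progenitor libraries end in _1, _2 or neither, a mark whose meaning is not given, and the ending _2 falls on the aged mice of 26 and 27 months alone. Among ISC libraries ending in _1, Id1 had 153.3 to 201.6 CPM with a median of 170.9 in 7 aged and 62.05 to 159.1 CPM with a median of 128.9 in 6 young samples, and Id3 averaged 143 ± 24.1 CPM in aged and 104 ± 34.2 CPM in young samples. Among those with neither ending, Id1 had 129.8 and 209.7 CPM in the 2 aged samples and averaged 122 ± 18.3 CPM in 5 young ones, and Id3 had 110.8 and 192.5 CPM in aged samples and averaged 91.1 ± 15.5 CPM in young ones. With the ending as a factor, a fit added after the data had been seen, Id1 gave 0.47 (adjusted p = 0.0945) and Id3 0.51 (adjusted p = 0.136) in ISCs, and Id3 0.38 (adjusted p = 0.307) in progenitors (edgeR). The ending and the oldest mice cannot be told apart.

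Single samples changed the calls in ISCs. Id1 lost its call in 9 of 23 fits that left out 1 sample each: aged male replicates 1, 2 and 6, aged female replicates 1 and 4, young male replicates 1 and 5, and young female replicates 4 and 5. Its log2 fold change stayed between 0.42 and 0.54, and the edgeR adjusted p reached at most 0.0909. Id3 in ISCs lost its call in 12 of the 23, between 0.50 and 0.63 with an adjusted p of at most 0.105. These were the fits without aged male replicates 1, 2, 6 and 7, aged female replicates 2, 3 and 4, young male replicates 4 and 5, and young female replicates 1, 4 and 5. Id3 in progenitors lost it in 2 of 20, without aged male replicate 2 (adjusted p = 0.0582) or aged female replicate 1 (adjusted p = 0.0570), with a log2 fold change between 0.40 and 0.49 in all 20.

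Other cell types and handling stress were measured beside these genes. The summed level of 13 dissociation stress genes such as Fos, Jun and Egr1 was 342 to 920 CPM in aged and 219 to 885 CPM in young ISCs, and 191 to 601 CPM in aged and 207 to 374 CPM in young progenitors. Its medians were higher in aged mice, at 546 against 333 CPM in ISCs and 348 against 247 CPM in progenitors. After the group means were removed, the stress sum correlated with Id1 at r = 0.07 and with Id3 at r = 0.29 over 23 ISC samples, and at 0.63 and 0.42 over 20 progenitor samples. The 12 stromal and endothelial markers were read because endothelial cells are known to express Id1 and Id3. They summed to 0 to 6.03 CPM in aged and 0 to 3.72 CPM in young ISCs. Of the endothelial genes, Cdh5 and Kdr were at 0 in every ISC sample, but Pecam1 and Plvap were not. Pecam1 was at 0 in 11 of 12 aged and 8 of 11 young ISC samples, and Plvap in 11 of 12 aged and 7 of 11 young. In progenitors the 12 markers summed to 8.25 to 79.4 CPM in aged and 3.36 to 17.7 CPM in young samples, of which Vim averaged 28.9 and 10.2 CPM. Cdh5, Kdr and Plvap were at 0 in every progenitor sample, and Pecam1 was at 0 in 7 of 10 at each age. Enteroendocrine markers summed to 241 to 1086 CPM in aged and 82.4 to 326 CPM in young progenitors, and correlated with Id3 at r = 0.09 there. In ISCs they had a median of 18.8 CPM in aged and 6.92 CPM in young samples (0.935 to 37.3 and 3.12 to 37.9 CPM), and correlated with Id1 at r = -0.10 and with Id3 at r = -0.19. Tuft cell markers had a median of 7.76 CPM in aged and 3.72 CPM in young ISCs (3.27 to 22.2 and 1.499 to 15.4 CPM), and correlated with Id1 at r = 0.29 and with Id3 at r = -0.03. The 12 immune markers summed to 0.861 to 286 CPM with a median of 3.14 in aged and to 0.184 to 6.63 CPM with a median of 2.44 in young ISCs, the highest being aged female replicate 2, while Ptprc, which marks blood cells, was at 0 in every ISC sample. Without aged female replicate 2, Id3 gave 0.55 with an edgeR adjusted p of 0.0749. The part of these markers in the Id differences was not tested.

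The age effects were not shown to differ between populations. The age effect of Id3 in Paneth cells was lower than that in ISCs by 0.50 ± 0.22 on the log2 scale (95% interval of the difference -0.94 to -0.06), with an edgeR adjusted p of 0.463. Paneth cells minus progenitors gave -0.36 ± 0.23, and progenitors minus ISCs gave -0.14 ± 0.23. For Id1 the same differences were -0.26 ± 0.20, -0.16 ± 0.21 and -0.11 ± 0.21. None of the 10 members passed in these 3 tests, where 0.0376%, 0% and 0.00753% of 13287 genes did (Paneth cells against ISCs, Paneth cells against progenitors and progenitors against ISCs; edgeR, with 1, 0 and 0 members at an unadjusted p below 0.05, and none called with DESeq2).

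Receptors and signal carriers gave no age call in any population. Bmpr1a (ENSMUSG00000021796, chr14:34410734-34503341, minus strand), the type 1 receptor that stem cells require to respond to BMP, averaged 22.0 ± 10.8 CPM in aged and 19.8 ± 9.74 CPM in young Paneth cells, 38.6 ± 10.9 CPM in aged and 37.7 ± 5.75 CPM in young progenitors, and 38.9 ± 14.2 CPM in aged and 37.8 ± 6.91 CPM in young ISCs. Its log2 fold change with age was 0.00 in progenitors (95% interval -0.28 to 0.28) and -0.09 in ISCs (95% interval -0.39 to 0.21). Aged ISCs spread more widely than young ones, with 5 of 12 aged samples above and 4 below the whole young range of 27.08 to 47.86 CPM.

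Bmpr2 (ENSMUSG00000067336, chr1:59763400-59879014, plus strand), the type 2 receptor, was read at 0 to 112 counts per sample. Its log2 fold changes were 0.50 ± 0.76 in Paneth cells, -0.38 ± 0.29 in progenitors and -0.04 ± 0.31 in ISCs. Smad1 (ENSMUSG00000031681, chr8:79338395-79399518, minus strand) averaged 13.8 ± 3.65 CPM in aged and 10.5 ± 3.61 CPM in young ISCs, where 10 of 12 aged samples were above the young median, and its log2 fold change of 0.39 ± 0.23 had an edgeR adjusted p of 0.670. Smad1 gave 0.20 ± 0.22 in progenitors and -0.47 ± 0.55 in Paneth cells. Smad5 (ENSMUSG00000021540, chr13:56703010-56742377, plus strand) gave 0.22 ± 0.40 in Paneth cells, 0.32 ± 0.24 in progenitors and -0.22 ± 0.19 in ISCs.

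The inhibitory Smads, which as pathway targets are often read beside the Id genes, did not pass either, and they were thinly read. Smad6 (ENSMUSG00000036867, chr9:63953076-64022059, minus strand) had 1 to 35 reads in aged and 3 to 38 reads in young ISCs, 1.94 ± 1.43 CPM against 3.14 ± 1.34 CPM. Its log2 fold change in ISCs was -0.71 ± 0.52 (95% interval -1.76 to 0.35), and 10 of 11 young samples lay above the aged median. In progenitors it was -0.08 ± 0.31 and in Paneth cells -0.51 ± 0.67. Smad7 (ENSMUSG00000025880, chr18:75367529-75395935, plus strand) had 4 to 36 reads in aged and 4 to 42 reads in young ISCs, with a log2 fold change of 0.03 (95% interval -0.91 to 0.96). For Smad7 a change of the size seen for Id1 and Id3 lay within the interval and was not detectable at this depth, and for Smad6 an increase of that size lay above it.

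**Figure D2:**
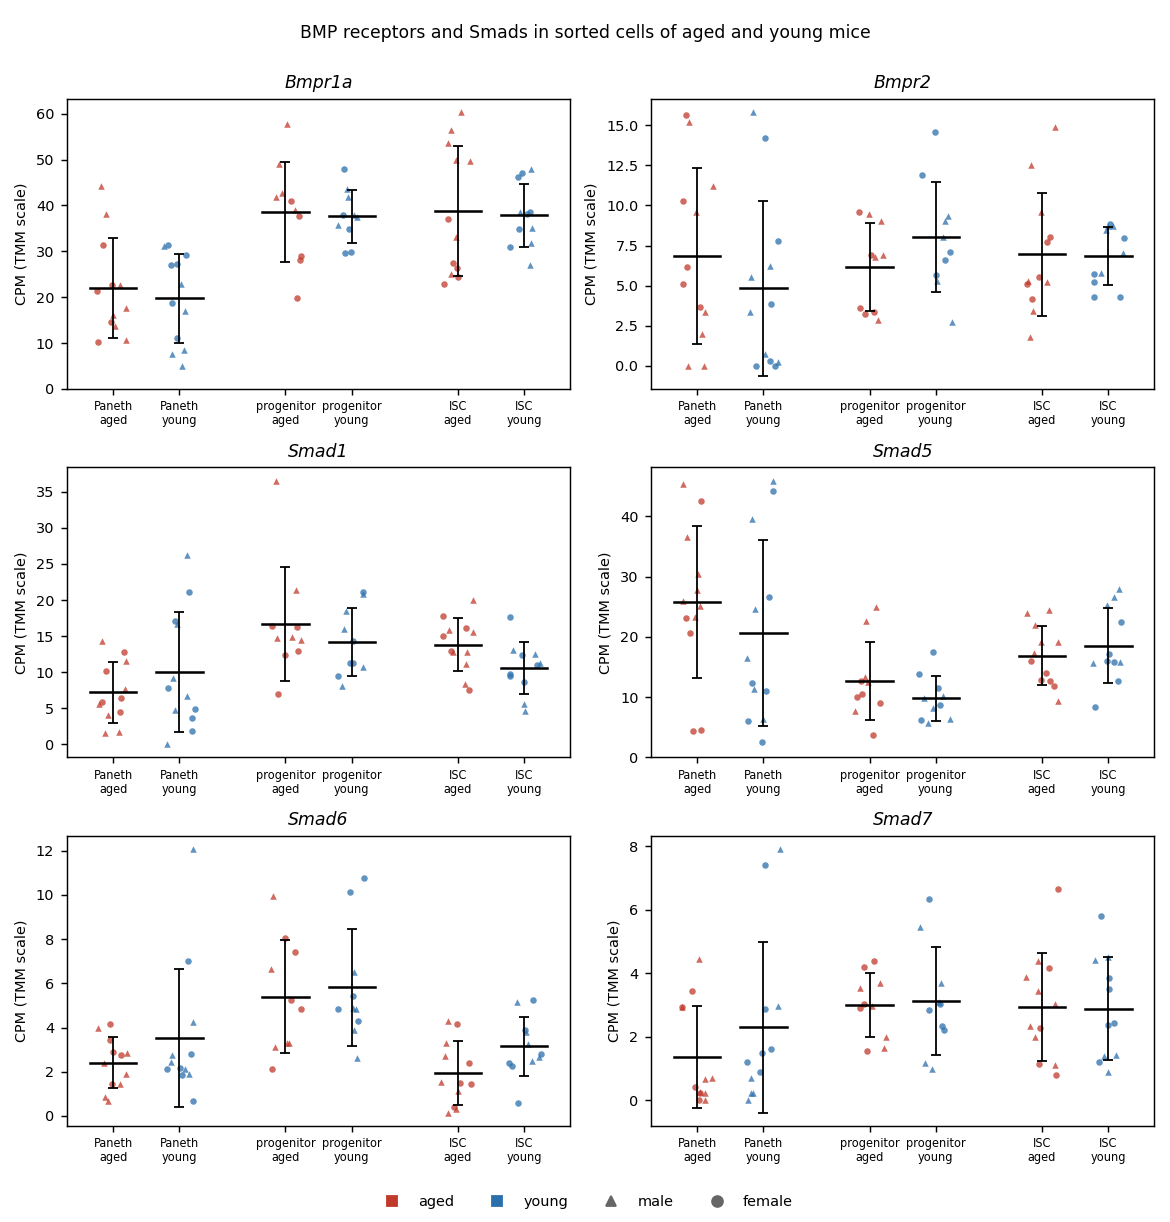
CPM on the common TMM scale (vertical axis, linear) of the receptors and Smads in each sample, drawn as for the Id genes with bars for the mean ± SD. Aged and young samples overlap throughout, and Bmpr1a averages 22.0 and 19.8 CPM in aged and young Paneth cells against 38.9 and 37.8 CPM in aged and young ISCs.

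**Figure D3:**
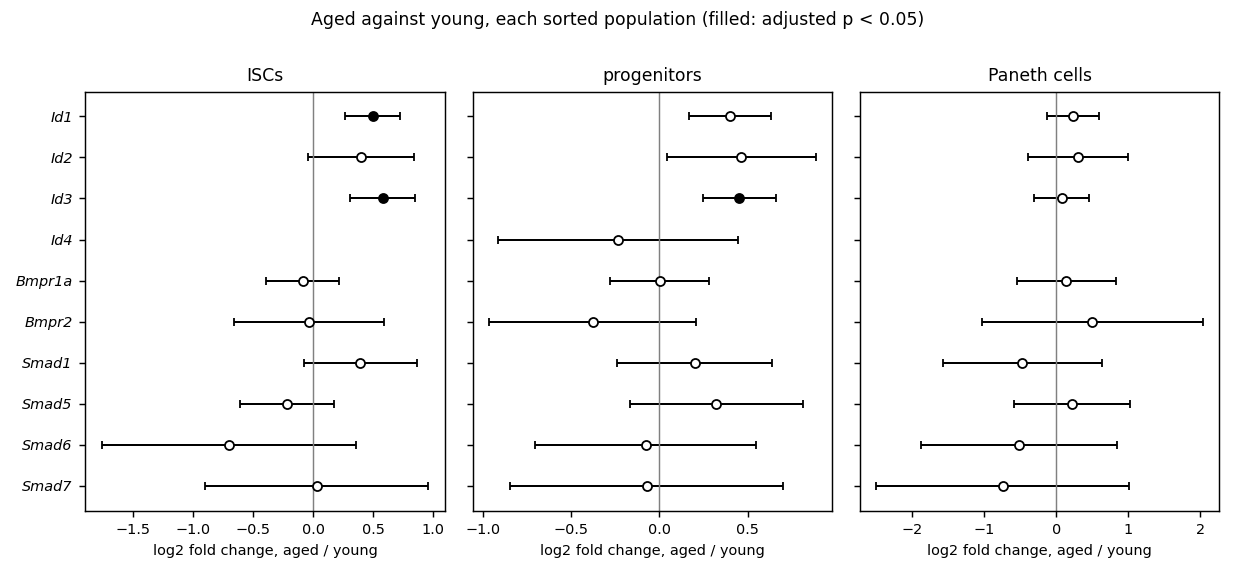
Log2 fold change of aged over young (horizontal axis) with its 95% interval for each member in the 3 populations, filled where the edgeR adjusted p was below 0.05. Id1 and Id3 in ISCs and Id3 in progenitors are filled; the intervals of Smad6 and Smad7 are the widest of the ISC panel.

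Among the further genes followed, a single gene, Slc28a2, passed the age test. It stood in the list of villus tip genes but was lower in young progenitors than in young ISCs. A total of 95 further genes in 8 lists were followed: BMP ligands, antagonists, other receptors, signal transducers, other BMP targets, the related TGF-beta branch, the bHLH partners of Id proteins, and genes of the villus tip, where BMP signalling is high. In ISCs 0 of the 56 tested were higher and 1 was lower, where 0.351% of all genes passed. In progenitors 0 of 60 were higher and 1 was lower, where 0.728% of all genes passed. In Paneth cells 0 of 60 passed (0.0686% of all genes), and 7 had an unadjusted p below 0.05. The gene that fell in ISCs and progenitors was Slc28a2, a nucleoside transporter, at 2.90 ± 3.09 CPM in aged and 33.3 ± 17.2 CPM in young ISCs and at 0.601 ± 0.531 CPM in aged and 6.71 ± 3.06 CPM in young progenitors. Its log2 fold changes were -3.47 ± 0.42 and -3.47 ± 0.51 (edgeR adjusted p = 2.24e-05 and 0.000174). In young progenitors against young ISCs it gave -2.29 ± 0.51 (edgeR adjusted p = 0.000348). Alpi, Enpp3 and Creb3l3 of the same list went the other way there, at 4.64, 5.91 and 3.05. The remaining 5 villus tip genes tested in ISCs did not pass.

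Other BMP targets were read beside the Id genes. Junb, an immediate early gene that also stands among the dissociation stress genes, gave 0.93 ± 0.26 in ISCs (edgeR adjusted p = 0.160), and Klf4, a differentiation factor, 0.61 ± 0.23 (adjusted p = 0.379). The co-receptor Rgmb gave -0.44 ± 0.12 in ISCs (adjusted p = 0.121), at 64.3 ± 10.9 CPM in aged and 85.1 ± 20.9 CPM in young samples. None of these passed. The 7 other BMP targets tested in ISCs had a median log2 fold change of 0.30 and the 4 ligands one of 0.10, against 0.00 over all genes. Over all 56 listed genes tested in ISCs the median was -0.00065, and over the 60 in progenitors it was -0.026.

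Between populations, Id3 was highest in progenitors at both ages. In aged mice it averaged 255 ± 41.3 CPM in progenitors and 150 ± 29.7 CPM in ISCs, and in young mice 186 ± 31.4 CPM in progenitors and 98.4 ± 27.0 CPM in ISCs. All 10 progenitor samples lay above every ISC sample of their age in both cases. The log2 fold changes were 0.77 ± 0.16 in aged and 0.91 ± 0.16 in young mice (edgeR adjusted p = 0.000105 and 8.4e-06). Id4 followed the same order and also did not overlap, at 3.65 ± 1.51 CPM in aged progenitors against 0.466 ± 0.488 CPM in aged ISCs, and 4.22 ± 1.73 CPM in young progenitors against 0.395 ± 0.647 CPM in young ISCs. Its log2 fold changes were 3.21 ± 0.87 and 3.32 ± 0.89 (adjusted p = 0.00325 and 0.00303). In ISCs 4 of 12 aged and 6 of 11 young samples had no Id4 read. The share of all genes without overlap between these gates was not counted. Goblet markers differed between these gates in the same direction, and over 20 progenitor samples their sum correlated with Id3 at r = 0.46 after group means were removed; their part was not tested.

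Progenitors against ISCs gave 3 calls among the 10 members in aged mice (25.1% of all genes) and 3 in young mice (22.7% of all genes), a share near that of all genes. Smad6 was the third in aged mice, at 5.40 ± 2.55 CPM in progenitors and 1.94 ± 1.43 CPM in ISCs, a log2 fold change of 1.45 ± 0.46 (edgeR adjusted p = 0.0134), and 1.46 (adjusted p = 0.0600) without the mice of 26 and 27 months. In young mice it gave 0.84 ± 0.46 and missed the threshold. Smad5 was the third in young mice, at 9.79 ± 3.71 CPM in progenitors and 18.5 ± 6.18 CPM in ISCs, a log2 fold change of -0.94 ± 0.32 (adjusted p = 0.0273). With the animal as a block it gave -1.22 with an adjusted p of 0.0982, and it also missed the threshold without young male replicate 3 (adjusted p = 0.0503) or young female replicate 3 (adjusted p = 0.0587) of the progenitors. Id1 did not differ beyond its spread between the populations, with a progenitor against ISC log2 fold change of 0.15 (95% interval -0.15 to 0.45) in aged and 0.26 (95% interval -0.04 to 0.56) in young mice.

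Paneth cells differed from both other populations in Bmpr1a. In aged mice it had 10.15 to 44.31 CPM in Paneth cells, 19.82 to 57.72 CPM in progenitors and 22.89 to 60.46 CPM in ISCs. In young mice it had 5.07 to 31.36 CPM in Paneth cells, 29.57 to 47.89 CPM in progenitors and 27.08 to 47.86 CPM in ISCs, and 10 of 12 Paneth samples lay below every progenitor sample. The log2 fold change of Paneth cells against ISCs was -0.73 ± 0.21 in aged and -0.95 ± 0.22 in young mice (edgeR adjusted p = 0.00596 and 0.000364), and against progenitors -0.80 ± 0.22 and -0.95 ± 0.22 (adjusted p = 0.00408 and 0.000571). Progenitors and ISCs did not differ beyond their spread. In aged mice the value against ISCs gave -0.53 (adjusted p = 0.119) without the mice of 26 and 27 months and that against progenitors -0.63 (adjusted p = 0.114), and with the animal as a block that against progenitors gave -0.71 (adjusted p = 0.0894). With only the first technical library of each animal, the young values were -0.39 (adjusted p = 0.380) and -0.38 (adjusted p = 0.411).

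Id3 in Paneth cells lay between the other populations in young mice and beside ISCs in aged mice. Against progenitors it was -0.81 ± 0.16 in aged and -0.45 ± 0.16 in young mice (edgeR adjusted p = 5.21e-05 and 0.0272), and against ISCs -0.04 ± 0.15 in aged and 0.46 ± 0.16 in young mice (adjusted p = 0.864 and 0.0212). The young value against ISCs gave 0.41 (adjusted p = 0.107) with the animal as a block and 0.43 (adjusted p = 0.160) with the first technical library, and it lost its call without young male replicate 4 or young female replicate 3 of the ISCs (adjusted p = 0.0575 and 0.0540) or young male replicate 1 or young female replicate 3 of the Paneth cells (adjusted p = 0.0703 and 0.109). The young value against progenitors gave -0.35 (adjusted p = 0.0925) with DESeq2 size factors, -0.35 (adjusted p = 0.0997) in the DESeq2 test, -0.48 (adjusted p = 0.136) with the first technical library and -0.41 (adjusted p = 0.0593) with only these 2 populations, and it lost its call without progenitor young male replicate 3 or without Paneth young male replicates 3 or 4 or young female replicate 2 (adjusted p at most 0.0661).

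Smad5 was higher in Paneth cells than in progenitors, at 25.8 ± 12.6 CPM in aged Paneth cells against 12.7 ± 6.49 CPM in aged progenitors, and 20.6 ± 15.4 CPM in young Paneth cells against 9.79 ± 3.71 CPM in young progenitors. The log2 fold changes were 0.97 ± 0.32 and 1.07 ± 0.32 (edgeR adjusted p = 0.0182 and 0.00881). With the animal as a block they were 1.17 (adjusted p = 0.0712) and 0.81 (adjusted p = 0.167), and with the first technical library 0.91 (adjusted p = 0.127) and 1.11 (adjusted p = 0.0597). Leaving out Paneth aged female replicate 3 gave 0.71 (adjusted p = 0.0973) and leaving out Paneth young female replicate 5 gave 0.79 (adjusted p = 0.0555).

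Smad1 was lower in aged Paneth cells, at 7.19 ± 4.20 CPM, than in aged progenitors at 16.7 ± 7.87 CPM and aged ISCs at 13.8 ± 3.65 CPM. The log2 fold changes were -1.14 ± 0.36 and -0.90 ± 0.35 (edgeR adjusted p = 0.0124 and 0.0393). The value against progenitors gave -1.03 (adjusted p = 0.155) with the animal as a block, -0.95 (adjusted p = 0.134) without the mice of 26 and 27 months and -0.93 (adjusted p = 0.172) with the first technical library. That against ISCs gave -0.84 (adjusted p = 0.124) without those mice, -0.69 (adjusted p = 0.291) with the first technical library, -0.92 (adjusted p = 0.0525) with no filter and -0.89 (adjusted p = 0.102) with only these 2 populations. It also missed the threshold in 12 of 67 fits that left out 1 sample, at an adjusted p of at most 0.0726. Those samples were ISC aged male replicates 2 and 3 and aged female replicates 2, 3 and 4, and Paneth aged male replicates 2, 3, 5 and 6 and aged female replicates 2, 3 and 4. In young mice Smad1 gave -0.51 ± 0.36 against progenitors and -0.06 ± 0.35 against ISCs. Smad6 in aged Paneth cells gave -1.11 ± 0.46 against progenitors (adjusted p = 0.0680), which passed without Paneth aged male replicate 6 (-1.24, adjusted p = 0.0437).

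Most Id4 reads of Paneth cells came from 3 male samples, aged male replicates 1 and 2 with 50 and 21 reads and young male replicate 1 with 32 reads, while 6 of 12 aged and 7 of 12 young samples had none. Against progenitors its log2 fold change was -2.12 ± 0.86 in aged mice (edgeR adjusted p = 0.0605) and -2.33 ± 0.85 in young mice (adjusted p = 0.0319). The aged value passed without Paneth aged male replicate 1 (-2.71, adjusted p = 0.0167), Paneth aged female replicate 1 (-2.85, adjusted p = 0.0285) or Paneth young male replicate 1 (-2.12, adjusted p = 0.0448). It was larger and passed without the mice of 26 and 27 months (-3.46, adjusted p = 0.0148) and with the first technical library (-3.90, adjusted p = 0.0161). The young value missed the threshold without progenitor young male replicate 3 or young female replicate 4, or Paneth young female replicates 2 or 5, at -2.20, -2.22, -2.20 and -2.20, with an adjusted p of at most 0.0546.

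Against ISCs, 2 of 10 members passed in aged Paneth cells (30.1% of all genes) and 2 in young ones (29.2% of all genes). Against progenitors, 4 of 10 passed in aged Paneth cells (24.8% of all genes) and 4 in young ones (26.1% of all genes). With 10 members, 2 or 4 calls are read no further than these shares. All Paneth values depend on the scaling. Mitochondrial transcripts took 51.6 ± 10.9% of reads in aged and 61.6 ± 6.74% in young Paneth cells. The 8 Paneth markers were abundant too, at 99700 CPM or more on the TMM scale. The part of either in this dependence was not tested. With totals alone the median of all genes moved to -1.61 in aged and -1.85 in young Paneth cells against ISCs, and to -1.43 and -1.70 against progenitors. Relative to that median, Bmpr1a stood at -0.68 and -0.91 against ISCs and at -0.78 and -0.93 against progenitors, and Smad5 at 0.88 and 1.05 against progenitors, although the unscaled Smad5 values themselves turned negative.

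**Figure D4:**
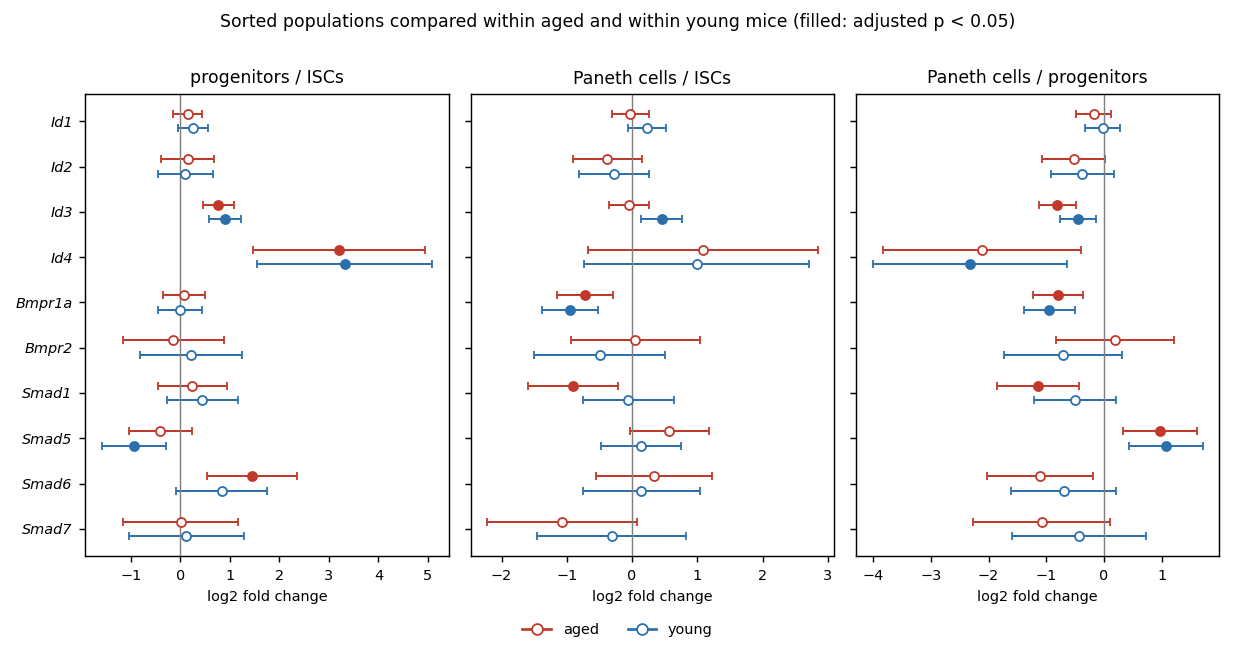
Log2 fold change between populations (horizontal axis) with its 95% interval, aged mice in red above young mice in blue, filled where the edgeR adjusted p was below 0.05. Id3 and Id4 are filled to the right in progenitors over ISCs at both ages, and Bmpr1a to the left in Paneth cells over both other populations.

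Other genes of the pathway also differed between populations. Of 6 antagonists tested in Paneth cells against ISCs, 2 were higher and 1 lower in aged mice, and 2 were higher and 2 lower in young mice, where 30.1% of all genes passed in aged and 29.2% in young mice. Among them Bambi, a pseudoreceptor, was higher in Paneth cells, at 226 ± 130 CPM in aged and 113 ± 60.7 CPM in young Paneth cells, against 3.64 ± 4.31 and 3.31 ± 2.25 CPM in aged and young ISCs (log2 fold changes 5.97 ± 0.54 and 5.09 ± 0.53, edgeR adjusted p = 1.59e-13 and 1.67e-11). Bmp7 was the ligand with the smallest p in aged Paneth cells against ISCs, at 70.3 ± 22.4 CPM against 28.5 ± 10.2 CPM (1.28 ± 0.21, adjusted p = 1.24e-06). Of 5 ligands tested there, 2 were higher and 1, Bmp3, lower. Smad4, the common partner of the signalling Smads, was lower in Paneth cells against ISCs by -0.60 ± 0.16 in aged and -0.60 ± 0.16 in young mice (adjusted p = 0.00157 and 0.00178).

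In progenitors against ISCs, the co-receptor Rgmb was lower, at 9.57 ± 2.16 CPM in aged progenitors against 64.3 ± 10.9 CPM in aged ISCs, and 12.6 ± 3.24 CPM in young progenitors against 85.1 ± 20.9 CPM in young ISCs (log2 fold change -2.75 ± 0.21 at both ages). Over all genes 25.1% passed here in aged and 22.7% in young mice. Of the 16 signal transducers, 1 was higher and 1 lower in aged mice and none passed in young mice. The 9 bHLH partners split, with 3 higher and 3 lower in aged and 4 higher and 1 lower in young mice. Atoh1, which specifies secretory cells, was higher by 2.96 ± 0.31 and 2.77 ± 0.32, and Ascl2, a stem cell factor, lower at -3.25 ± 0.24 and -2.68 ± 0.24 (edgeR adjusted p at most 6.09e-11 for these 4 values). Of 9 other BMP targets, 2 (Cdkn1a and Klf4) were higher and 3 lower at each age.

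Id1 and Id3 varied together in ISCs and progenitors beyond the group means. The correlation of their residuals was 0.67 over 23 ISC samples, 0.53 over 20 progenitor samples and -0.09 over 24 Paneth samples, each within 1 set of libraries that share depth and handling. Id1 and Id2 gave 0.02, 0.37 and 0.04 in the same order. The residuals of Id1 were also set against those of the Smads and receptors, and differences between populations were not tested. Id1 with Smad7 gave 0.22 in Paneth cells, 0.14 in progenitors and 0.54 in ISCs. Id1 with Bmpr1a gave -0.35 in Paneth cells, 0.71 in progenitors and -0.09 in ISCs. The pairs with Smad7 and Bmpr1a were picked from all pairs of members as high in 1 population. By contrast, Id1 with Bmpr2 gave -0.16 in Paneth cells, -0.14 in progenitors and -0.17 in ISCs. Among 7556 genes, those whose residuals followed Id1 most closely on average over the 3 populations were Akt1s1 (mean r = 0.54), Mrpl1, Rpl22l1, Rpl7a and Sdhb, and for Id3 they were B4galt5 (mean r = 0.50), Snx3, Nip7, Churc1 and 1190007I07Rik. For Id2 they were Nptn (mean r = 0.55), Rap2c, Ccdc97, Enc1 and Phf3, and for Smad7 Zfp707 (mean r = 0.49), Smarcal1, Rogdi, Smarcc2 and Tpra1. No other member of the group was among these nearest genes. The search took only genes averaging at least 5 CPM in each population, scaled within that population. Smad6, Smad7, Id4, Bmpr2 and Smad1 were read too thinly in Paneth cells to appear in it.

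**Figure D5:**
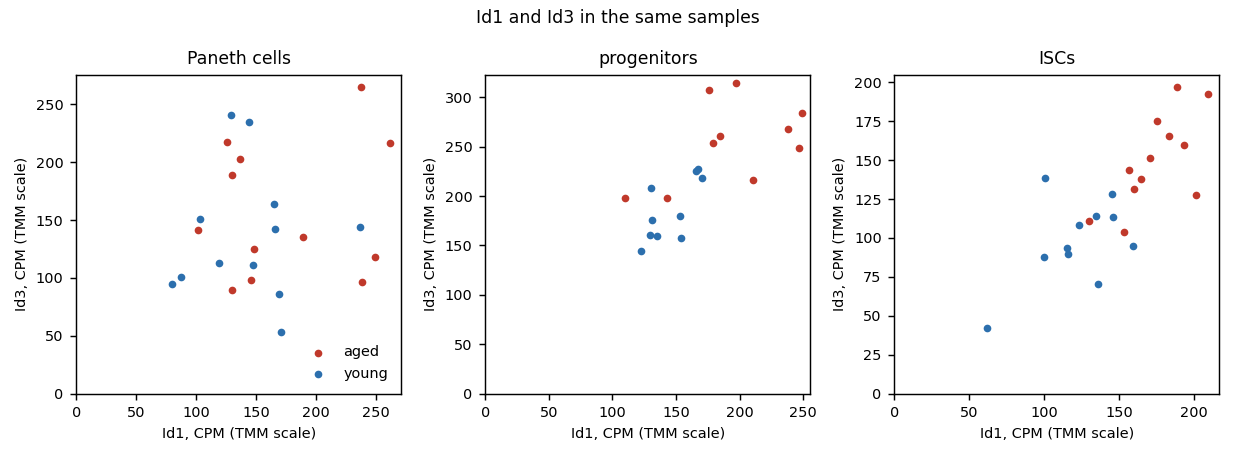
Id1 (horizontal) against Id3 (vertical), both in CPM on the common TMM scale, with 1 point per sample and aged samples in red. In ISCs and progenitors the aged samples lie towards the upper right of the young ones with some overlap, and in Paneth cells aged and young samples are mixed.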

How the data were processed

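RNA of sorted cells (1 ng per library) was sequenced from the 3′ end (SC3-seq) on a NextSeq instrument, in 112 libraries. The submitters' processing notes name cutadapt 3.0, STAR 2.7.9a, HTSeq 0.13.5, DESeq2 1.30.1 and mm10 as the tools and build. Annotation release and strand setting: not given in the sources used here. Raw counts per gene were deposited by the authors in 1 table, used here, and CPM values in another, which equal the deposited counts scaled to each library's total (largest difference 4.95e-10) and were used only for that check. Of 32285 genes, 127 had no symbol.

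The 69 Paneth libraries were summed to 24 animals, giving 67 samples, and 2 names that share an animal number (O_111m and O_111m_2nd) were counted apart. Genes with low counts were removed (filterByExpr, minimum 10) and libraries scaled by TMM. Age was tested within each population over 4 groups of age and sex, averaging the sexes, and populations over all 12 groups, with edgeR 4.0.16 (robust quasi-likelihood test, Benjamini-Hochberg adjusted p below 0.05; R 4.3.3, limma 3.58.1). P-values given as adjusted are from that test unless DESeq2 1.42.0 is named. Intervals are 95% intervals. The members and lists were chosen with earlier results of these data known. In the all-sample fit some mice enter with several populations. Replicate numbers do not pair samples (median correlation of same-numbered samples 0.03, -0.01 and 0.01 in ISCs, progenitors and Paneth cells). Populations sorted from the same animal pair by origin (median correlation 0.08, 0.05 and 0.05 over 10, 15 and 14 pairs). Alternatives were DESeq2's size factors and test, no filter, unscaled totals, 1 technical library per Paneth animal, only the 2 populations compared, no mice of 26 and 27 months, replicate and animal blocks, each sample left out in turn and, added after the data had been seen, the library-name ending. Genes named from the lists are up to 4 per list and comparison with the smallest p among those that passed; Junb, Klf4 and Rgmb in the ISC age comparison were named after their values were seen. The 5 nearest genes were sought among genes averaging at least 5 CPM, by the mean correlation of log2 CPM residuals (prior count 2). Coordinates are from GENCODE M21. The model fits were tried on simulated data with changes larger than the age effects of Id1 and Id3. Every simulated gene had the same spread, below the common spread of each fit. Recovery of changes as small as those of Id1 and Id3 was therefore not tested.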

Additional observations from a re-analysis of the deposited data

Results flagged for a closer look

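In 14 of 120 groups of 5 to 7 samples (1 member gene in 1 population, age and sex), 1 sample stood apart from the rest by more than Dixon's critical value at the 95% level, which chance gives in about 1 group in 20.

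Among the Id genes, Id3 in ISC young female replicate 3 was the only low sample of the 14, at 41.97 CPM against 89.89 to 113.8 CPM in the other young females. Id1 in progenitor young male replicate 5 was 154.2 CPM against 129.6 to 134.6 CPM. Id2 was high in ISC aged male replicate 2 at 56.76 CPM (others 24.08 to 35.88), in ISC young male replicate 1 at 58.39 CPM (others 9.526 to 23.11) and in Paneth young female replicate 5 at 37.18 CPM (others 8.347 to 15.62).

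Id4 stood apart in 5 groups that were otherwise near 0, on few reads. Paneth young male replicate 1 had 9.738 CPM from 32 reads against at most 0.6333 CPM in the other young males. ISC young male replicate 1 had 2.081 CPM from 16 reads, Paneth young female replicate 6 had 1.579 CPM from 7 reads, Paneth aged female replicate 1 had 0.7672 CPM from 4 reads and ISC aged male replicate 7 had 0.6919 CPM from 5 reads.

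The inhibitory Smads stood apart in single young samples. Smad6 was 12.07 CPM in Paneth young male replicate 5 (49 reads; others 1.9 to 4.263 CPM) and 6.994 CPM in Paneth young female replicate 6 (31 reads; others 0.6994 to 2.781 CPM). Smad7 was 7.417 CPM in Paneth young female replicate 2 (24 reads; others 0.9024 to 2.89 CPM) and 6.348 CPM in progenitor young female replicate 4 (46 reads; others 2.214 to 3.041 CPM). The part of library quality in these values was not tested.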

How the results depend on the processing

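Of 739 member values under the alternatives other than leaving out 1 sample, 625 kept their direction and side of the threshold, 31 lost and 23 gained a call, 10 turned round and 50 that passed in neither fit changed sign. Every one of the 10 turned under unscaled totals, where the median of all genes itself moved.

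Members called in the age comparison of ISCs were 2, and 1 with unscaled totals, 0 without mice of 26 and 27 months and 0 with the ending as a factor. In progenitors they were 1, and 0 under the last 2 of these. Between Paneth cells and ISCs, 2 members passed in aged mice, and 9 with unscaled totals but 1 with no filter, without mice of 26 and 27 months, with the first technical library or with only the 2 populations. Without those mice Bmpr1a and Smad1 both lost their calls and Smad7 gained one (-1.84, adjusted p = 0.0477). In young mice 2 passed, and 9 with unscaled totals, 0 with the first technical library and 1 with the animal as a block. Between Paneth cells and progenitors, 4 passed in aged mice, and 9 with unscaled totals and 1 with the animal as a block. In young mice 4 passed, and 9 with unscaled totals and 1 with the first technical library. The replicate block by number, fitted within a population, left 2, 1 and 0 members called in ISCs, progenitors and Paneth cells, as without it. Except for the values named beside the results, the block on the animal changed no member's call.

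Under unscaled totals the log2 fold changes that turned round were, in aged Paneth cells against ISCs, -1.62 for Bmpr2, -1.09 for Smad5 and -1.21 for Smad6, and against progenitors -1.33 for Bmpr2 and -0.55 for Smad5. In young Paneth cells they were -1.61 for Id1, -1.36 for Id3, -1.72 for Smad5 and -1.71 for Smad6 against ISCs, and -0.65 for Smad5 against progenitors. The library totals include the mitochondrial share given beside the Paneth results.

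With 1 sample left out, members called ranged from 0 to 2 in the age comparisons of ISCs and progenitors and were 0 in Paneth cells. They ranged from 1 to 2 in aged and young Paneth cells against ISCs, from 3 to 5 in aged and 2 to 4 in young Paneth cells against progenitors, and were 3 in aged and 2 to 3 in young progenitors against ISCs. No age effect of a member differed between populations in any of these fits.

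Counts of all genes called moved by more than 1.5 times in these cases. For age they were 42 in ISCs (106 with DESeq2), 86 in progenitors (142 with DESeq2, 34 without the oldest mice, 34 with the ending) and 8 in Paneth cells (22 unscaled, 30 with DESeq2, 2 without the oldest mice, 3 with the first technical library). For the sex difference in age effect they were 0 in ISCs (7 with the replicate block) and 0 in progenitors (4 with no filter, 2 with DESeq2). For progenitors against ISCs they were 3329 in aged (1879 with the animal block) and 3021 in young mice (1599 with the animal block, 4684 with only the 2 populations). For Paneth cells against ISCs they were 4000 in aged (11040 unscaled) and 3878 in young mice (11466 unscaled), and against progenitors 3295 in aged (1810 with the animal block, 10110 unscaled) and 3474 in young mice (10716 unscaled). For age effects compared between populations they were 1 for progenitors minus ISCs (4 with DESeq2, 0 without the oldest mice or with the animal block, 2 with only the 2 populations), 5 for Paneth cells minus ISCs (3 unscaled, 36 with DESeq2, 8 without the oldest mice, 69 with the first technical library, 0 with only the 2 populations) and 0 for Paneth cells minus progenitors (17 with DESeq2, 26 with the first technical library). Except where fewer samples or genes entered, the cause was not tested.

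Smad6, Smad7, Bmpr2 and, outside progenitors, Id4 were read at few counts, which limits their precision. Separate samples are known only by their animal names.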
